A study of Homo sapiens with 9 samples.

Results

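The regions described here are 561 narrow ZEB1 peaks that recurred in cells of the pancreatic line MiaPaCa2 and overlapped no ZEB1 peak of the colon line RKO. They were found by chromatin immunoprecipitation with sequencing (ChIP-seq), in which protein is fixed to DNA, pulled down with an antibody, and the attached DNA is sequenced. A peak is a stretch where the pulled-down DNA was enriched. The regions were chosen from the 4804 ZEB1 peaks of unmodified MiaPaCa2 cells, and they were selected on measured values. A peak had to be under 1000 bp wide, overlap by at least 1 bp a ZEB1 peak of at least 1 of the MiaPaCa2 clones, and overlap no ZEB1 peak of RKO. Of the 4594 MiaPaCa2 peaks under 1000 bp, 1963 (42.7%) were in a clone list, and 561 of these (28.6%) had no RKO peak. Both percentages follow from the rule and are given as a description.

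MiaPaCa2 cells come from a ductal adenocarcinoma of the pancreas and RKO cells from a carcinoma of the colon, and both lines were profiled unmodified. The WT clone and the delta-Repeat clone were each grown by dilution from MiaPaCa2 cells electroporated with Cas9-nickase plasmids. For the delta-Repeat clone the plasmids also carried pairs of guide RNAs against the repeated sequence upstream of the MIR200A/B locus, and the WT clone is the matching control. Each clone is 1 clonal line, both lack an input sample of their own in the series as used here, and every condition is represented by a peak list of 1 sample. No difference between conditions can thus be set against a spread between cultures. All ZEB1 samples used 1 antibody, in 1 lot for both clones and in other lots for unmodified MiaPaCa2 and for RKO. CTCF was profiled in unmodified MiaPaCa2 cells.

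ZEB1, a transcription factor with zinc fingers, binds E-box sequences. It represses epithelial genes such as those of cell adhesion and the miR-200 microRNAs, which in turn repress ZEB1, and it drives the epithelial-to-mesenchymal transition. Where a transcription factor binds often differs between cell types, because accessible chromatin and partner proteins differ. CTCF is another zinc-finger protein, known for its role at insulators and at the anchors of chromatin loops, and many of its sites are shared between cell types. Positions below are in hg19, counted from 1. No hg19 genome or gene annotation was used here, so regions are named by position, and neither their sequences nor the genes near them are given.

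The regions were of moderate strength. The authors' fold enrichment is the peak's signal over the background of the peak caller, a linear ratio. It had a lowest value of 1.92, a median of 7.10 and a highest value of 27.3 over the 561 regions. The weakest region lay on chromosome 6 (58778145 to 58778447), near another weak one (58777208 to 58777414, fold 2.54). Both were in the WT clone alone, at folds of 1.97 and 2.42, and overlapped CTCF peaks of folds 1.91 and 2.27. They are counted below among the CTCF overlaps and the regions of the WT clone alone. Narrow recurrent peaks that were also in RKO (1402) had a median of 9.43 and reached 71.4, and narrow peaks in neither a clone list nor RKO (1470) had a median of 5.62. The regions thus lay between these groups, as did their median width of 432 bp against 567 and 268.5 bp. The strongest region ranked 107 in the whole MiaPaCa2 list. A stricter threshold (fold of at least 5 and −log10 q of at least 10, where q is the caller's adjusted p-value) kept 296 of the 561 regions. These values took part in choosing the groups and carry no test.

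The strongest region lay on chromosome 2 from 224702206 to 224702919. Its fold was 27.3 in unmodified MiaPaCa2 and 11.2 in the WT clone. Its delta-Repeat clone fold was 20.4. The nearest RKO peak lay 106.8 kb away. The next lay on chromosome 10 from 95198426 to 95199336, with folds of 26.8, 29.8 and 18.2 in the same order and the nearest RKO peak 847 kb away. Both places had a peak in all 3 MiaPaCa2 lists and none in RKO within 100 kb.

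A region on chromosome X from 18371645 to 18372436 had folds of 22.6, 8.68 and 16.4 and overlapped a CTCF peak of fold 15.1. A region on chromosome 2 from 235150408 to 235151058 had folds of 22.2, 11.9 and 21.4. A region on chromosome 7 from 47826603 to 47827315 had folds of 21.6, 16.4 and 19.1. Folds are not compared between lists here, since sequencing depth and the control library of each sample set its scale.

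Of the 20 regions with the highest MiaPaCa2 fold, which reached down to 14.6, 18 were in both clone lists. The exceptions lay on chromosome 8 from 128262927 to 128263486, with a MiaPaCa2 fold of 14.7 and a peak in the WT clone only (fold 7.36), and on chromosome 20 from 56593074 to 56593837, with a MiaPaCa2 fold of 14.7 and a peak in the delta-Repeat clone only (fold 6.43). Others of these 20 include a region on chromosome 6 from 27124857 to 27125748, which overlapped a CTCF peak of fold 15.9 and had ZEB1 folds of 19.1 in MiaPaCa2 and 9.22 in the WT clone. Its delta-Repeat clone fold was 12.1. The strongest region of chromosome 16 (58497935 to 58498739) had folds of 16.5, 9.63 and 17.5.

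Of the 561 regions, most were in 1 clone list only. Both clones held 151 (26.9%, exact 95% interval 23.3 to 30.8), the delta-Repeat clone alone held 277 (49.4%, 45.2 to 53.6) and the WT clone alone held 133 (23.7%, 20.2 to 27.4). The share in both clones was 43.2% of the 296 regions under the stricter threshold and 16.7% of the 359 regions under 500 bp wide. Over all narrow recurrent peaks 45.9% were in both lists, and among those also in RKO 53.5% (50.8 to 56.1) were. The WT clone list is the shorter one, with 1515 peaks against 2160, and read depth is unknown for every list. Intervals cover counting error only.

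Presence in both clones went with strength in the unmodified line. With the 561 regions divided into 4 classes by MiaPaCa2 fold, the number in both clone lists was 8 of 141 in the weakest class (5.67%, 2.48 to 10.9), then 19 of 140, 39 of 140, and 85 of 140 in the strongest class (60.7%, 52.1 to 68.8). Stronger regions were also wider, with a median of 308 bp in the weakest class and 622.5 bp in the strongest. Regions in both clones had a median MiaPaCa2 fold of 9.34, those of the WT clone alone 6.89 and those of the delta-Repeat clone alone 6.45.

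In the clone lists the regions were mostly weaker peaks. The 284 regions found in the WT clone had WT clone folds from 1.97 to 29.8 with a median of 6.68, and 89 of them (31.3%) were above that list's median of 7.46. The 428 regions in the delta-Repeat clone had folds from 3.45 to 32.5 with a median of 6.41, and 156 (36.4%) were above that list's median of 7.06. Over the 151 regions in both clones, Spearman's rho between folds was 0.58 for MiaPaCa2 and the WT clone, 0.49 for MiaPaCa2 and the delta-Repeat clone, and 0.45 between the clones. These correlations are across regions, which share their libraries, and describe these lists only.

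**Figure D1:**
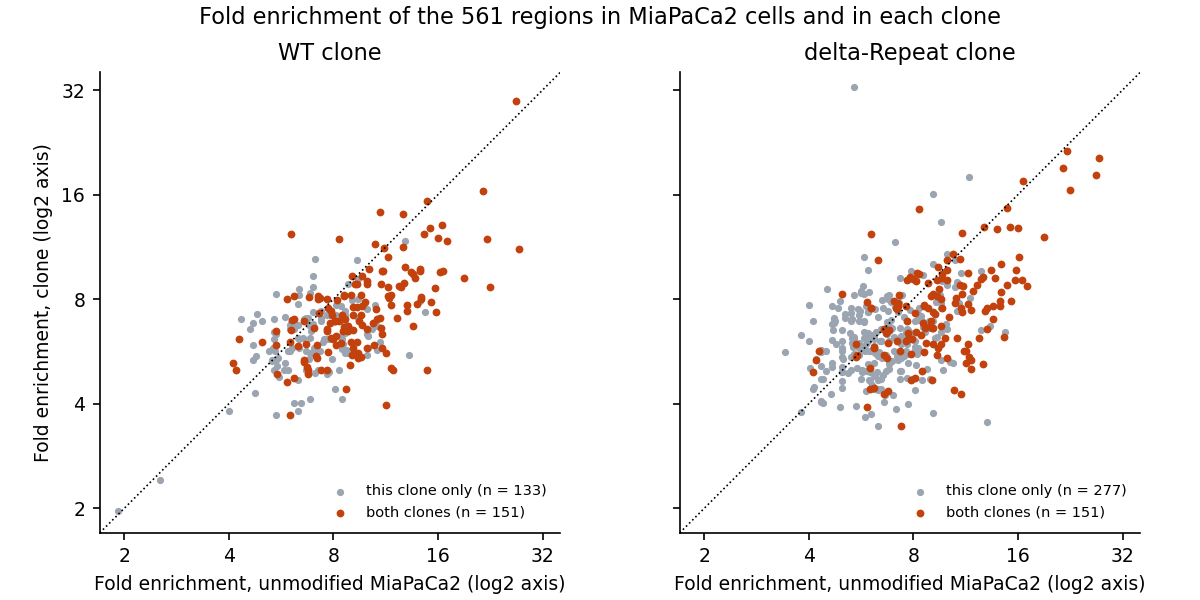
Fold enrichment of each region in unmodified MiaPaCa2 cells (x axis, log2) against its fold for the WT clone (left, y axis, log2) or the delta-Repeat clone (right). Each point is 1 region, orange where both clones have a peak and grey where only the clone of that panel has one. The dotted line marks equal folds as a guide to the axes only. Since each list has its own scale, a point's side of the line is not read as stronger or weaker binding. Orange points lie further to the right, as their median MiaPaCa2 fold of 9.34 against 6.89 and 6.45 shows.

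Summits, the positions of highest signal, were compared between each clone and MiaPaCa2. Since the rule required these peaks to overlap, short distances follow in part from it. They are given as a description, without a comparison group. Summits were a median of 60 bp apart in the WT clone. This distance was 63 bp in the delta-Repeat clone. They were within 100 bp for 205 of 284 regions (72.2%, 66.6 to 77.3) and 287 of 428 (67.1%, 62.4 to 71.5). An overlap under 50 bp was all that tied 5 regions to the WT clone and 4 to the delta-Repeat clone. The 284 regions met 282 separate WT clone peaks and the 428 met 423 separate delta-Repeat clone peaks, so a few neighbouring regions share 1 clone peak.

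The region with the highest delta-Repeat clone fold was one of these short overlaps. It lay on chromosome 10 from 7859604 to 7859820, had a MiaPaCa2 fold of only 5.41, and met 13 bp of a delta-Repeat clone peak of fold 32.5 (7859808 to 7860485). That clone peak lay mainly over the neighbouring MiaPaCa2 peak from 7859922 to 7860539 (fold 35.5), which was also a peak in the WT clone (fold 36.5) and in RKO (fold 30.9). The place beside this region thus had a strong peak in all 4 ZEB1 lists.

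Regions found in 1 clone only were divided between the clones unevenly over the chromosomes. On chromosomes 1 and 10 together the WT clone held 34 of 55 such regions (61.8%, 47.7 to 74.6), and on the other chromosomes it held 99 of 355 (27.9%, 23.3 to 32.9). Narrow recurrent peaks also in RKO had a like split, with 56 of 87 (64.4%, 53.4 to 74.3) on chromosomes 1 and 10 and 138 of 565 (24.4%, 20.9 to 28.2) elsewhere. Both groups thus showed the split, and since it was known from the full lists, the counts are not independent support. Chromosome 6, singled out after its values were seen, also had a majority in the WT clone, with 17 of 31 regions (54.8%, 36.03 to 72.7), against 9 of 43 peaks also in RKO (20.9%, 10.04 to 36.04), and this difference was not tested.

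By the rule no region overlapped an RKO peak, so distances to RKO peaks are given as a description. Distances for random positions were not computed, so whether these are long or short was not tested. The distance to the nearest RKO peak had a median of 115.6 kb, with 25.4 and 405.8 kb as the lower and upper quartile and 3.69 Mb as the largest. It was 134.9 kb for regions in both clones, 110.8 kb for those of the WT clone alone and 110.7 kb for those of the delta-Repeat clone alone. An RKO peak lay within 1 kb of 41 regions (7.31%, 5.29 to 9.78) and within 10 kb of 96 (17.1%, 14.1 to 20.5), and 50 regions had none within 1 Mb. For the narrow peaks in neither a clone list nor RKO the median was 66.2 kb and 12.8% had an RKO peak within 1 kb. The RKO list is the longest ZEB1 list, with 7193 peaks down to a fold of 1.62, but RKO signal below its threshold is not in the data analysed here.

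The rule left some near misses on each side. The nearest RKO peak to any region began 31 bp past a region on chromosome X (15807926 to 15808585, MiaPaCa2 fold 10.9). That RKO peak had a fold of 4.90. Next came a region on chromosome 1 (183439759 to 183440052, fold 4.47) with an RKO peak 40 bp away, one on chromosome 10 (104676918 to 104677381, fold 7.93) with one 72 bp away, one on chromosome 4 (7072439 to 7072638, fold 5.47) with one 86 bp away, and one on chromosome 10 (31608168 to 31608591, fold 9.54) with one 93 bp away. At the regions on chromosomes X, 1 and 4, a clone peak that met the region also overlapped that RKO peak. It was the delta-Repeat clone peak on chromosomes X (15807855 to 15808903) and 1 (183439496 to 183439798). On chromosome 4 it was the WT clone peak (7072623 to 7072847). The rule did not ask whether clone peaks overlapped RKO peaks. On the other side, 15 of the 1402 recurrent peaks counted as present in RKO overlapped it by less than 100 bp. The shortest overlap was 12 bp, on chromosome 17 from 15848870 to 15849174.

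**Figure D2:**
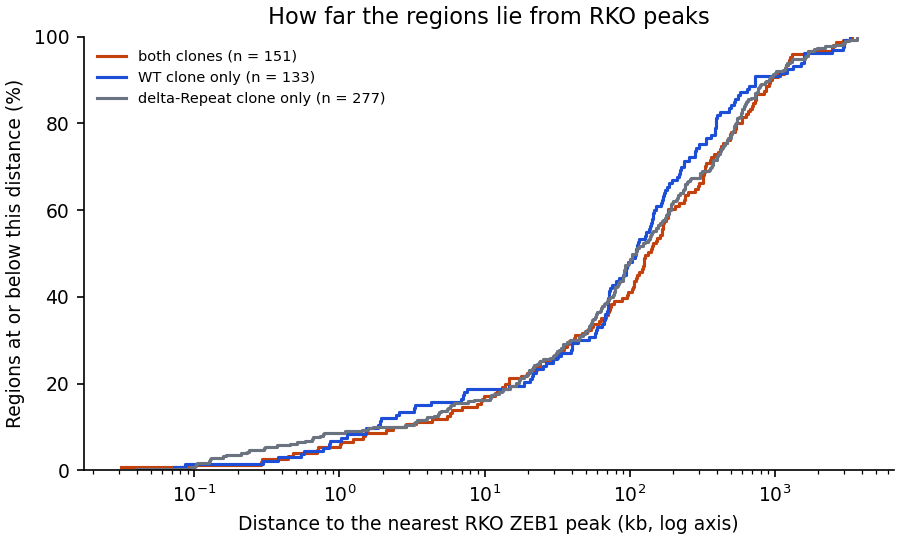
Cumulative share of the regions (y axis, percent) at or below each distance to the nearest RKO ZEB1 peak (x axis, kb, log scale), with 1 line for regions in both clones, 1 for those in the WT clone alone and 1 for those in the delta-Repeat clone alone. The 3 lines run close together, with medians between 110.7 and 134.9 kb.

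The width limit left out 13 peaks that met every other part of the rule. The narrowest of these was 1015 bp wide (chromosome 2, 238395182 to 238396196, fold 9.75). The next 4 were 1018, 1022, 1038 and 1038 bp wide, with folds of 13.8, 6.96, 10.9 and 17.3. The widest regions inside the limit were 987, 982, 972, 932 and 932 bp wide. The first of these (chromosome 2, 238498984 to 238499970) had a MiaPaCa2 fold of 11.6, no WT clone peak, and a delta-Repeat clone peak of fold 18.0.

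CTCF was not part of the rule, so its overlap with the regions could be tested. A CTCF peak of MiaPaCa2 overlapped 147 of the 561 regions (26.2%, 22.6 to 30.0), against 20.0% of all narrow MiaPaCa2 ZEB1 peaks. This share depended on the rule for a match, which also changed the set of regions. With 50% of both peaks required throughout it was 13.5% of 585 regions. With summits within 100 bp throughout it was 10.2% of 639 regions. By any overlap the share was higher than in narrow peaks of neither a clone list nor RKO, where it was 260 of 1470 (17.7%, 15.8 to 19.7; odds ratio 1.65, adjusted p = 6.19e-05, two-sided Fisher's exact test with Benjamini-Hochberg adjustment over 4 tests). Against narrow recurrent peaks also in RKO, with 315 of 1402 (22.5%, 20.3 to 24.7), the difference did not pass (odds ratio 1.22, adjusted p = 0.0876, same exact test), and the odds ratio with fold class held constant was 1.20 (0.95 to 1.52). These tests take peaks as independent and compare peaks of 1 list, not conditions.

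The CTCF shares were also compared by strength, and no test of a difference between the fold classes was made. In the 3 lower of 4 classes of MiaPaCa2 fold, the shares of regions with a CTCF peak were 26.9%, 28.7% and 28.5%, against 16.9%, 16.8% and 19.8% of peaks in neither a clone list nor RKO. In the strongest class they were 21.1% and 22.2%, with intervals of 15.1 to 28.2 and 12.04 to 35.6, the second on only 54 peaks. Recurrent peaks also in RKO had 13.4%, 24.2%, 24.0% and 22.6% from the weakest class to the strongest. Against peaks in neither a clone list nor RKO, the Mantel-Haenszel odds ratio, which holds the fold class constant, was 1.65 (1.28 to 2.12). Under the stricter threshold, which kept 296 regions, the odds ratio was 1.34 and the difference no longer passed (adjusted p = 0.399, Fisher's exact test).

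No difference in strength was detectable between the CTCF peaks at the regions and those at other narrow ZEB1 peaks. Taking the strongest CTCF peak at each, their median CTCF fold was 13.4 over 147 regions, against 13.9 at the 315 recurrent peaks also in RKO and 13.3 at the 260 peaks in neither list, and the median of the whole CTCF list was 10.8. Neither difference passed a permutation test of the medians (adjusted p = 0.926 for both, 4 tests). CTCF and ZEB1 summits lay a median of 153 bp apart in the overlapping regions, against 149 and 139.5 bp in those groups, and neither difference passed (adjusted p = 0.926 for both, same permutation test). They were within 100 bp in 49 of the 561 regions (8.73%, 6.53 to 11.4), against 8.27% (6.89 to 9.84) and 6.46% (5.26 to 7.84). Regions without a CTCF overlap had the nearest CTCF peak a median of 9.30 kb away, and the other peaks without one had it 14.6 and 11.1 kb away; these distances were not tested.

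The strongest CTCF peak at a region had a CTCF fold of 57.6 and lay over a region of chromosome 2 from 26726306 to 26726795. The ZEB1 folds there were 13.9 in MiaPaCa2 and 7.75 in the WT clone. Its delta-Repeat clone fold was 12.8. The next CTCF peaks had folds of 36.5 (chromosome 2, 69534034 to 69534460), 33.3 (chromosome 2, 11264547 to 11264746), 30.5 (chromosome 10, 104676918 to 104677381) and 29.8 (chromosome 6, 71666067 to 71666545). The ZEB1 folds of these 4 regions in MiaPaCa2 were 8.92, 5.90, 7.93 and 6.67 in the same order, which lie on both sides of the regions' median of 7.10.

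Few regions lay near the ends of chromosomes compared with the recurrent peaks that RKO shared. The outer 5 Mb held 68 of the 561 regions (12.1%, 9.54 to 15.1), against 19.6% of all narrow MiaPaCa2 peaks. It held 314 of 1402 recurrent peaks also in RKO (22.4%, 20.2 to 24.7), an odds ratio of 0.48 for the regions (adjusted p = 3.97e-07, Fisher's exact test over the same 4 tests). Against peaks in neither a clone list nor RKO, with 231 of 1470 (15.7%, 13.9 to 17.7), the odds ratio was 0.74 and missed the threshold (adjusted p = 0.0564, same exact test). With the fold class held constant the odds ratios were 0.58 (0.43 to 0.77) and 0.56 (0.40 to 0.78), so that the second interval also lay below 1.

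By class of MiaPaCa2 fold, the share of regions near chromosome ends was 7.69% and 6.98% in the 2 weaker classes, 12.4% in the third and 18.0% (12.4 to 24.8) in the strongest, and a difference between the classes was not tested. Recurrent peaks also in RKO had 18.6%, 12.1%, 19.5% and 25.8% in the same order. RKO peaks were themselves frequent near the ends, with 24.0% of the RKO list in the outer 5 Mb, and of narrow MiaPaCa2 peaks in RKO but in no clone list 24.8% (22.4 to 27.4) lay there. The WT clone list had 24.3% there, the whole MiaPaCa2 list 20.15% and the delta-Repeat clone list 18.7%. A high share was thus not particular to RKO. The part of the RKO density in the low share of the regions was not tested.

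**Figure D3:**
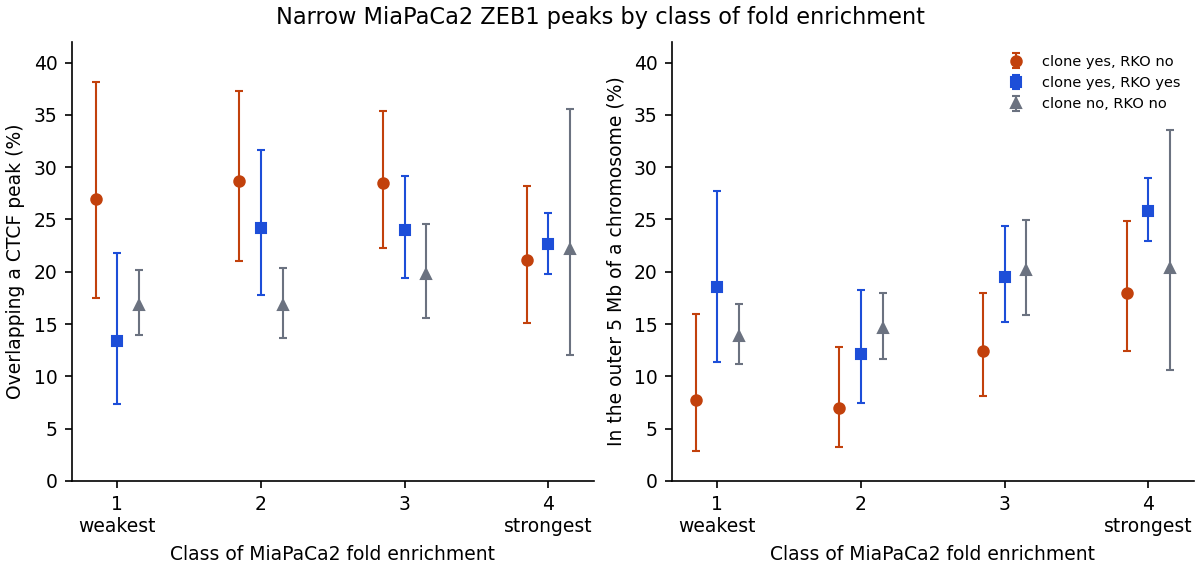
Percent of narrow MiaPaCa2 ZEB1 peaks that overlap a CTCF peak (left) or lie in the outer 5 Mb of a chromosome (right), by class of MiaPaCa2 fold (x axis, 1 weakest, 4 strongest). Orange circles are the 561 regions, blue squares the recurrent peaks also in RKO, grey triangles the peaks in neither a clone list nor RKO, and bars are exact 95% intervals. The regions lie above the grey triangles on the left in the 3 weaker classes and below the blue squares on the right in every class.

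The regions were on all 23 chromosomes that carry ZEB1 peaks, from 6 on chromosome 21 to 65 on chromosome 2. Chromosome 16 stood apart: it held 9 regions (1.60% of 561) and 76 recurrent peaks also in RKO (5.42% of 1402), an odds ratio of 0.28 (adjusted p = 0.00157, Fisher's exact test over 23 chromosomes). Only 10.6% (4.96 to 19.1) of its narrow recurrent peaks were thus absent from RKO, against 28.6% over all chromosomes. Peaks in neither a clone list nor RKO were also few there, at 27 of 1470, so the low count was not particular to the regions. Chromosome 16 held 399 of the 7193 RKO peaks and 173 of the 4804 MiaPaCa2 peaks. The part of these densities in the low count was not tested. Chromosome 9, with 14 regions and 72 shared peaks, and chromosome 2, with 65 and 114, had unadjusted p-values of 0.00993 and 0.019 in the same exact tests but adjusted values of 0.114 and 0.146. On chromosome X 13 of 28 recurrent peaks (46.4%, 27.5 to 66.1) were absent from RKO, and the adjusted p was 0.245 in the exact test.

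The result on chromosome 16 depended on the rule for a match. With summits within 100 bp in place of any overlap, chromosome 16 had 23 regions and 41 shared peaks, with an odds ratio of 0.71 (adjusted p = 0.678, Fisher's exact test). Under the stricter threshold the odds ratio was 0.30, on 5 regions, and the adjusted p was 0.105 in the same test. Among peaks in both clone lists, with 4 regions and 45 shared peaks, it was 0.43 (adjusted p = 0.432, same exact test). Copy number of the chromosomes in either line was not measured here, and its part in these counts was not tested.

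**Figure D4:**
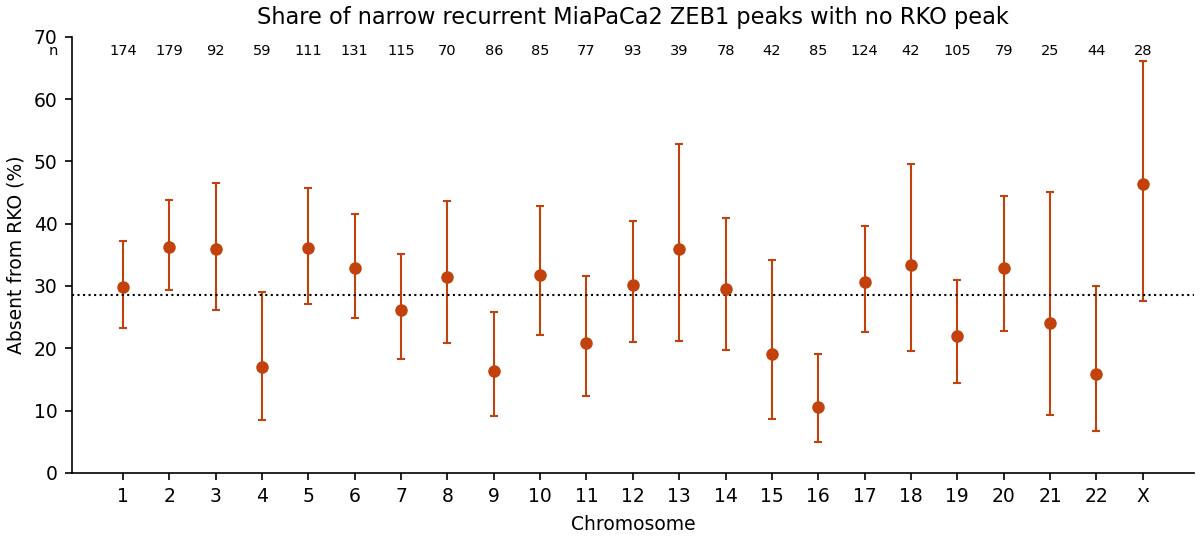
Percent of narrow recurrent MiaPaCa2 ZEB1 peaks without an RKO peak (y axis) on each chromosome (x axis), with exact 95% intervals, the number of peaks above each point and the overall 28.6% as a dotted line. Chromosome 16 is the lowest point, at 10.6% of 85 peaks, and chromosome X the highest, at 46.4% of 28.

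Some regions lay near each other, as did other narrow peaks. Of the 561 regions, 123 (21.9%, 18.6 to 25.6) had another region within 50 kb. Of the 1402 recurrent peaks also in RKO, 20.3% had another of their own kind that near, and of the 1470 peaks in neither a clone list nor RKO 32.8% had. Both groups are larger than that of the regions. A larger group offers more neighbours of its own kind, so these shares do not compare clustering. Any other MiaPaCa2 ZEB1 peak lay within 50 kb of 276 regions (49.2%, 45.0 to 53.4), against 43.8% and 54.9% of those groups. A recurrent peak also in RKO lay within 50 kb of 59 regions (10.5%, 8.10 to 13.4), against 18.1% (16.2 to 20.2) of the peaks in neither list and 20.3% (18.2 to 22.5) among the recurrent peaks in RKO themselves. These shares are a description and were not tested.

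The densest windows of 50 kb held 4 regions each, and there were 3 of them. On chromosome 2 the 4 regions spanned 17.4 kb, from 235150408 to 235167786. The window held 6 MiaPaCa2, 5 WT clone and 4 delta-Repeat clone ZEB1 peaks and 0 RKO peaks, and the nearest RKO peaks lay 726.4 to 743.1 kb away from them. Its regions at both ends were strong, with MiaPaCa2 folds of 22.2 and 14.9, and both were in both clones. Those between (235163711 to 235164182 and 235166572 to 235166986) had folds of 5.38 and 7.33 and were found in the WT clone alone and the delta-Repeat clone alone. A wider peak of fold 11.96 lay among them (235164443 to 235165919) and was left out by the width limit.

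On chromosome 12 the 4 regions spanned 25.2 kb, from 13020806 to 13045964. Their MiaPaCa2 folds were 8.52, 15.2, 11.5 and 11.7 in order of position, the first was in the WT clone alone, and the other 3 were in both clones. The window held 1 weak RKO peak (13043877 to 13044561, fold 3.86), which lay 1.02 kb before the last region and overlapped a CTCF peak of fold 12.3. RKO thus had a peak in this window, at a place where MiaPaCa2 had none.

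On chromosome 20 the 4 regions lay within 3.77 kb, from 30196217 to 30199985, with MiaPaCa2 folds of 9.47, 4.52, 9.99 and 13.6. The first and the last were in both clones, and the other two were in the delta-Repeat clone alone. The first pair shared 1 delta-Repeat clone peak (30196200 to 30196845, fold 8.57). A CTCF peak of fold 39.9 (30200606 to 30201073) lay 0.62 kb beyond the last region, and the nearest RKO peak was 2.33 kb from the first, outside the window.

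**Figure D5:**
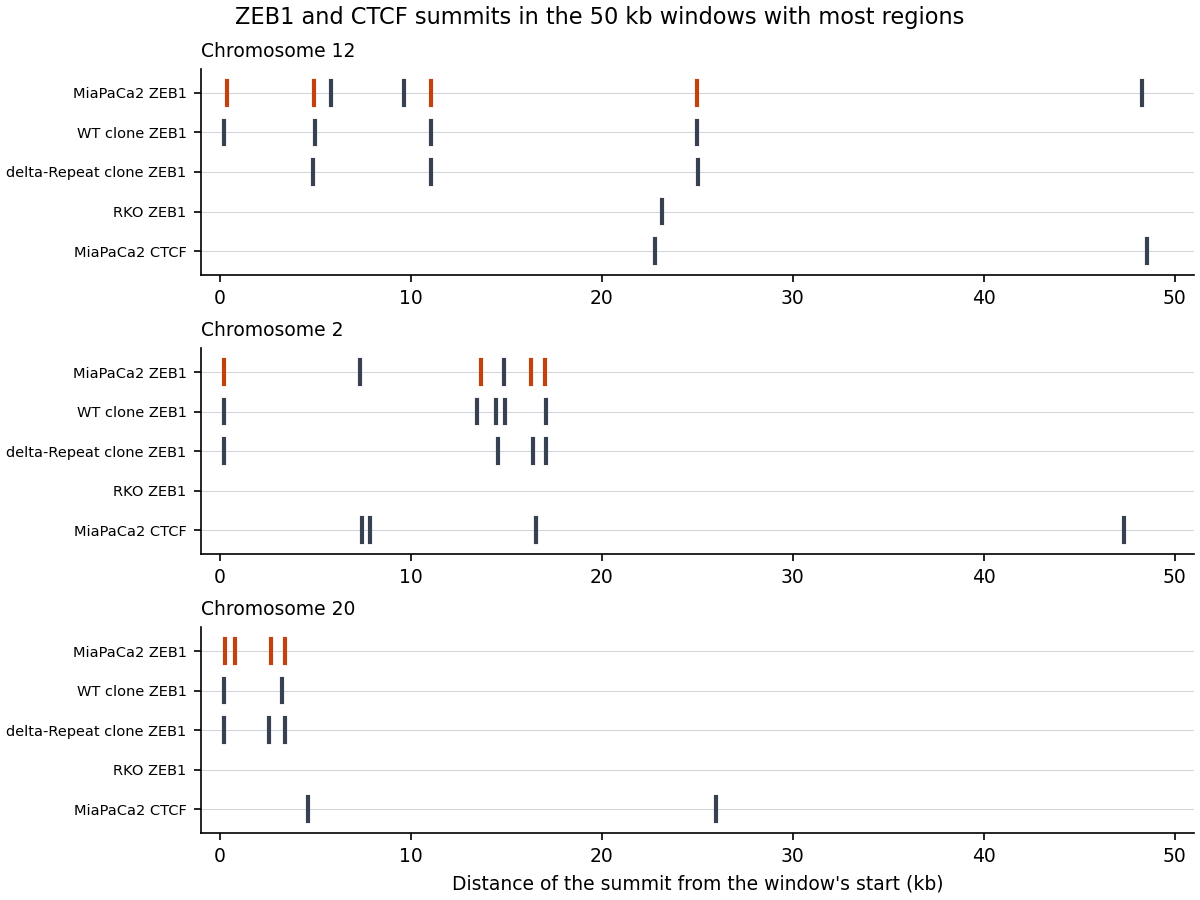
Summits of every peak in the 3 windows of 50 kb with 4 regions each, by distance from the window's start (x axis, kb), with 1 row for each deposited list. Orange marks are the regions and dark marks all other peaks; the RKO row is empty on chromosomes 2 and 20 and has 1 mark on chromosome 12.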

How the data were processed

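The deposited data used here are 5 peak lists, 1 for each sample, of ZEB1 in 4 samples and CTCF in 1. The submitters' processing notes list MACS2 2.1.0.20150731, Bowtie2 2.2.6 and SAMtools, with hg19 (GRCh37) as the build. The control of each list and any pooling of libraries are not given in the sources used here, and read depth is unknown. Fold enrichment, as deposited, is a linear ratio written by the authors' peak caller. The deposited significance columns are −log10 of the caller's p and q values. Input samples were not analysed here.

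Overlaps, intervals and tests were computed in Python 3.11.15 (pandas 2.3.3, numpy 2.4.6) using scipy 1.17.1 together with statsmodels 0.14.6. Figures used matplotlib 3.10.9. A test on simulated data found 500 of 500 planted overlaps. Intervals are exact Clopper-Pearson 95% intervals. Permutation tests used 100000 resamples. The largest peak end in any list stood for the length of a chromosome, and the unassembled short-arm ends of chromosomes 13, 14, 15, 21 and 22 were not counted as ends. Fold classes divide the 4594 narrow MiaPaCa2 peaks into 4 equal parts, except for presence in both clones, where the 561 regions were divided.

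The regions, comparison groups and tests were chosen with earlier results of these data known. Named regions were the 20 of highest MiaPaCa2 fold, the 5 of highest fold in each clone, the 5 nearest to an RKO peak, the 5 widest, the 5 with the strongest CTCF peak and those of the densest windows, with the strongest given in full. Planned results on genes, promoters, base composition and motifs were not run, as no hg19 genome was used.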

Additional observations from a re-analysis of the deposited data

How the results depend on the processing

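No paired analysis was possible because every condition is a single sample. Requiring both clone lists, joining for the CTCF and end tests, width classes, and leaving out chromosome 16 or chromosome ends were chosen after seeing the data. The stricter threshold left 296 regions, of which 43.2% were in both clones and 16.6% in the outer 5 Mb; the CTCF odds ratio against peaks in neither list was 1.34, no chromosome differed after adjustment (3 at an unadjusted Fisher p under 0.05) and the chromosome 16 odds ratio was 0.30. With 50% of both peaks there were 585 regions, of which 20.9% were in both clones and 13.5% met CTCF. With summits within 100 bp there were 639 regions. Of these, 23.0% were in both clones, 10.2% met CTCF and 15.5% lay in the outer 5 Mb. In that setting 0 chromosomes differed (1 unadjusted, Fisher's exact test) and the chromosome 16 odds ratio was 0.71. Under 500 bp there were 359 regions, 16.7% in both clones, and the CTCF odds ratio against peaks also in RKO passed at 1.47. Requiring both clones left 151 regions, 15.2% of them in the outer 5 Mb, with 0 chromosomes past the threshold (3 unadjusted, Fisher's exact test) and a chromosome 16 odds ratio of 0.43. Against peaks in neither list, the outer 5 Mb odds ratio passed at 0.71 with no RKO peak within 1 kb, 0.66 under 500 bp, 0.56 over fold classes and 0.67 over width classes. It did not pass at 0.76 with 50% of both peaks, 0.88 with summits within 100 bp or 0.83 under the stricter threshold. Nor did it pass at 0.96 with both clones required, 0.81 with peaks within 10 kb joined or 0.73 without chromosome 16. Fewer regions enter some of these settings by construction; otherwise the cause was not tested. The other 55 values include the outer 5 Mb odds ratios that did not pass. These 55 values kept their side of the threshold or stayed within their interval or within 1.5 times the count. No direction reversed. The alternatives on motifs and promoters were not run. Depth is unknown, so an absent peak may be one too weak to be called.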
